A study of Mus musculus with 2 samples.

Results

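The genes of the mitochondrial respiratory chain were examined as one group in single-cell RNA counts from the adult mouse brain. Members were the genes whose symbols start with Nduf plus a subunit letter and number, Uqcr, Cox4 to Cox8, Atp5 or mt-, or are Sdha, Sdhb, Sdhc or Sdhd. Pseudogenes were left out, and a member needed at least 50 unique molecular identifiers (UMIs, the tags that mark single captured RNA molecules) over both matrices. The rule matched 125 genes and kept 121 of the 26033 in the files. Of these, 85 are encoded in the nucleus and 36 on the mitochondrial genome. The pseudogene Cox5b-ps was dropped. Cox8c with 1 UMI, Ndufb11b with 0 and mt-Ty with 22 fell below the minimum, and the member nearest above it was mt-Tl2 with 92. The nuclear set held 38 members assigned by symbol to complex I, 4 to complex II, 8 to complex III, 17 to complex IV and 18 to complex V. The mt- set held 13 messenger RNAs, 2 ribosomal RNAs and 21 transfer RNAs. Ndufb1 is typed as a noncoding promoter transcript in the GENCODE annotation and as protein-coding in RefSeq, and it was kept.

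The respiratory chain sits in the inner mitochondrial membrane. Complex I takes electrons from NADH and complex II from succinate, both pass them to ubiquinone, complex III hands them to cytochrome c, and complex IV transfers them to oxygen, while complex V uses the resulting proton gradient to make ATP. Complexes I, III, IV and V combine subunits made from nuclear and from mitochondrial genes, and complex II is wholly nuclear. Several complex IV subunits exist as paired isoforms from separate genes, classically a widespread form beside one typical of heart and skeletal muscle, testis or lung.

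The study compared 2 genotypes with 1 library each. The control mice were Csf1rfl/fl, with the gene for the CSF1 receptor flanked by loxP sites. The mutant mice were Mrc1Cre:Csf1rfl/fl, which carry the same floxed alleles and Cre recombinase under the control of Mrc1, a gene marking border-associated macrophages (BAMs). All animals were adult, and the tissue was whole brain. Per the labels, the cells were sorted as mural cells and fibroblasts, endothelial cells, astrocytes, BAMs and microglia before 10x 3′ library preparation. Strain, exact age and the number of animals pooled were not stated in the sources at hand. With 1 library per genotype no difference between genotypes can be tested. Every interval below is a 95% interval for counting error alone, and fewer cells of a state and less RNA per cell cannot be told apart in summed counts.

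Barcodes numbered 8739 in the control and 8735 in the mutant library, with totals of 85716531 and 82806348 UMIs. The libraries share 17 barcode sequences. Barcodes were kept with at least 500 detected genes and, unless stated, at most 10% mt- UMIs, the limit called the cap here. A barcode was put in a class when at least 3 of 8 class markers (10 for mural cells) were detected, with a lead of 2 over any other class. The cap left 3480 control and 3790 mutant microglia-like cells, 200 and 84 BAM-like, 111 and 161 endothelial-like, 50 and 146 fibroblast-like, 631 and 237 astrocyte-like, and 554 and 965 choroid plexus epithelium-like cells. The choroid plexus epithelium is not among the sorted populations that the labels name, yet its Ttr, Folr1, Prlr and Kl were among the leading genes of that class, as was the member Cox8b. Oligodendrocyte-like, ependymal-like and mural-like classes held 40 and 15, 26 and 39, and 10 and 10 cells and are given as levels only. Csf1r, the targeted gene, had 1466 counts per 1000000 nuclear-gene UMIs (interval 1410 to 1523) in control and 1204 (1123 to 1289) in mutant BAM-like cells, and 2388 and 1867 in microglia-like cells. The labels do not say which part is floxed, so a 3′ count need not show the deletion. No marker of the astrocyte list was among the 10 leading genes of the astrocyte-like class, which began with Gpc5, Ntm, Lsamp and Luzp2. The leading genes of the microglia-like class included S100a8, S100a9 and Csf3r, genes known from neutrophils. Fibroblast-like cells often sat near the edge of their gate, with 19 of 50 control and 91 of 146 mutant cells at the minimum number of markers or the minimum lead. A further 32 and 120 barcodes missed the gate by 1 in either or both. Choroid plexus epithelium-like cells at either minimum numbered 216 of 554 control and 318 of 965 mutant, and BAM-like cells 68 of 200 and 34 of 84.

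Choroid plexus epithelium-like cells carried far more nuclear respiratory chain RNA than any other class. Their mt- share of all UMIs, Ttr included, stayed close to that of fibroblast-like and astrocyte-like cells. The 85 nuclear members together stood at 71924 counts per 1000000 nuclear-gene UMIs (CPM, the scale of all nuclear levels here) in the control library (interval 71754 to 72093) and 70945 (70808 to 71083) in the mutant. The next class with at least 50 cells, fibroblast-like cells, had 22958 and 23890. Endothelial-like cells had 18820 and 16810, astrocyte-like cells 16239 and 14356, BAM-like cells 14701 and 13751, and microglia-like cells 10372 and 10640. The order of these 6 classes was the same in both libraries, and no interval overlapped that of a neighbouring class. The choroid level was 3.13 times the fibroblast level in the control (interval 3.07 to 3.19) and 2.97 times in the mutant (2.94 to 3.00). It was 6.93 and 6.67 times the microglial level.

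Cells within a class varied as well. In control choroid plexus epithelium-like cells the quartiles of the per-cell nuclear level were 62483 and 83209 CPM around a median of 73396. In control astrocyte-like cells they were 5189 and 22834 around 16102, so the astrocyte range was wide for its level. The upper quartile of every other class of at least 50 cells lay below the lower quartile of the choroid class.

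The mt- set behaved differently. It took 3.34% of all UMIs in control and 2.99% in mutant microglia-like cells, the lowest of the 6 classes in both libraries. Choroid plexus epithelium-like cells had 6.85% and 7.04%, astrocyte-like cells 6.997% and 6.07%, and fibroblast-like cells 6.71% and 6.61%. BAM-like cells had 5.23% and 4.63%, and endothelial-like cells 4.61% and 4.85%. The choroid to fibroblast ratio of the mt- set was 1.02 in the control and 1.06 in the mutant, against the 3.13 and 2.97 of the nuclear set. The highest class was astrocyte-like in one library (control) and choroid plexus epithelium-like in the other, and BAM-like and endothelial-like cells exchanged places.

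**Figure D1:**
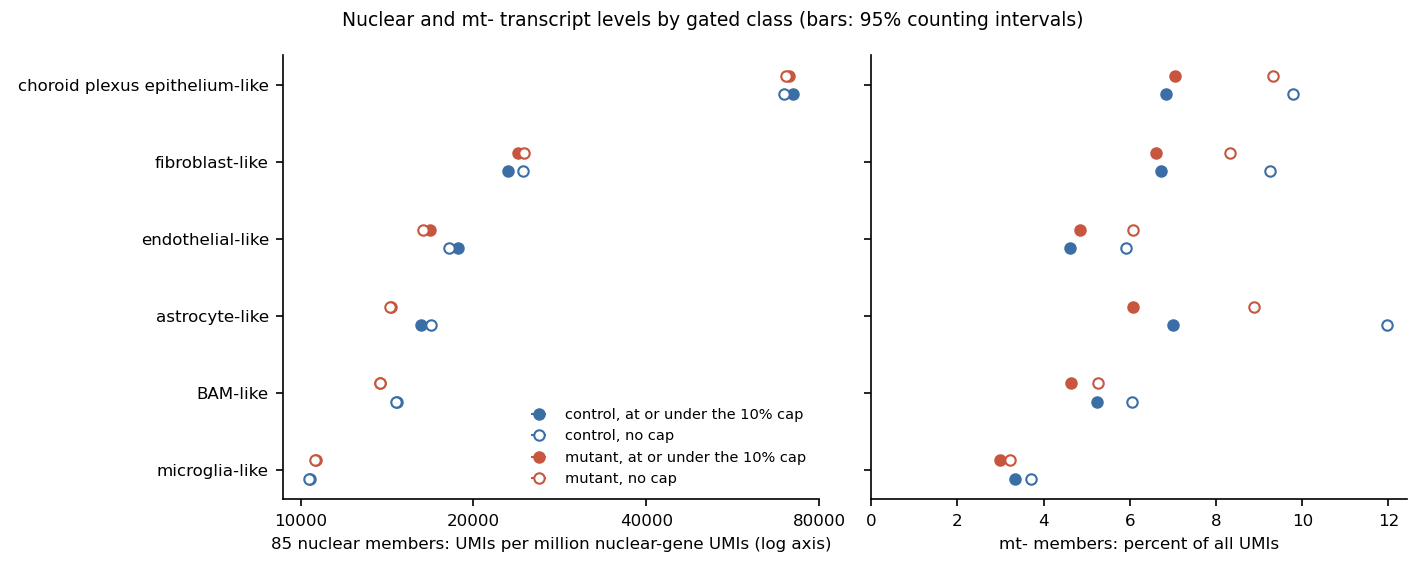
The left panel plots the summed level of the 85 nuclear members as CPM over nuclear-gene UMIs on a log axis, and the right panel the mt- share of all UMIs, for 6 classes; blue is the control and red the mutant library, filled points keep the cap, open points drop it, and bars are 95% counting intervals, mostly narrower than the points. Choroid plexus epithelium-like cells stand apart on the left at 71924 and 70945 CPM and lie among the other classes on the right.

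The difference ran through nearly the whole nuclear set. Choroid plexus epithelium-like cells had the highest level of the 6 classes in both libraries for 77 of the 85 nuclear members (90.6%), compared with 9.47% of the 15062 nuclear genes detected in these classes and 9.89% of the ribosomal protein genes. Among the 15 mt- messenger and ribosomal RNAs, 7 were highest there in both libraries. The median nuclear member was 2.74 times the highest other class in the control and 2.51 times in the mutant, and the median mt- RNA 0.98 and 1.21 times. Leaving Ttr out of the total, chosen after the data were seen, raised the summed choroid to fibroblast ratio to 4.63 (control) and 4.32 (mutant). Ttr alone held 323824 and 313805 CPM of the choroid counts. All other choroid levels and class ratios, mt- shares included, keep Ttr in their total and were not recomputed without it.

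The 38 members grouped under complex I include Ndufa4, whose protein is now placed with complex IV, and its relative Ndufa4l2. The choroid class was highest in both libraries for 35 of the 38. Ndufa1, an accessory subunit encoded on the X chromosome, had 1190 CPM in control and 1141 in mutant choroid cells, against 185 and 247 in fibroblast-like and 70.3 and 57.1 in astrocyte-like cells. Ndufa11 had 1225 and 1201 in the choroid class against 268 and 245 in fibroblast-like and 80.5 and 77.9 in microglia-like cells. Ndufa4, the most abundant member of this group, reached 2429 and 2413 there and 647 and 741 in fibroblast-like cells. The choroid levels of these genes lay above every other class in both libraries.

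A few complex I members did not follow. Ndufs1, a core iron-sulfur subunit, had 89.8 and 94.3 CPM in choroid cells and 90.9 and 100 in astrocyte-like cells. Ndufb4 had 258 and 233 in choroid cells and 357 and 344 in fibroblast-like cells, where it was highest in both libraries.

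The 4 subunits of complex II, succinate dehydrogenase, were all highest in the choroid class, with a median of 1.87 times the next class in the control and 1.94 times in the mutant. Sdhc, a membrane anchor subunit, had 250 and 263 CPM there, against 110 and 86.2 in fibroblast-like cells. Sdha, the flavoprotein subunit, had 134 and 131 against 129 and 115 in astrocyte-like cells, the narrowest margin of the 4. All 8 nuclear complex III members were highest in the choroid class, at a median of 3.22 and 3.10 times the next class. Uqcr10, a small subunit, reached 1553 and 1500 CPM against 349 and 368 in fibroblast-like cells, and Uqcr11 reached 1722 and 1671 against 410 and 465. Small accessory subunits such as these lay further from the other classes than the core protein Uqcrc1, at 1.998 and 1.84 times the next class.

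In complex IV, cytochrome c oxidase, 13 of 17 nuclear members were highest in the choroid class in both libraries. Cox8a, the most abundant nuclear member of complex IV over all gated cells, had 3979 and 3705 CPM in choroid cells, 830 and 914 in fibroblast-like cells and 341 and 362 in microglia-like cells. In complex V, the ATP synthase, 17 of 18 were highest there. The exception is another gene model that carries the Atp5o symbol, described below.

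**Figure D2:**
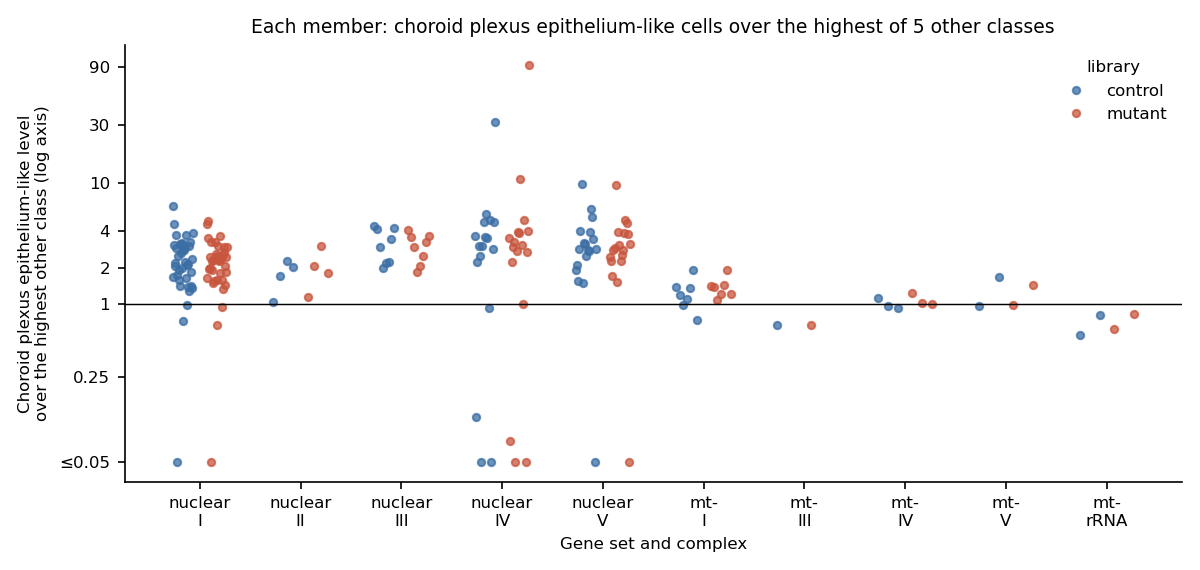
Each point is one member, plotted as its level in choroid plexus epithelium-like cells over the highest of the 5 other classes, on a log axis with values under 0.05 drawn at 0.05; columns separate nuclear and mt- genes by complex, and blue and red mark the control and mutant libraries. The nuclear medians of the 5 complexes run from 1.87 to 3.22 in the control, while the mt- genes lie around 1.

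The genes for the c subunit of ATP synthase, the proton-carrying ring, differed widely although Atp5g1, Atp5g2 and Atp5g3 encode the same mature protein. Atp5g1 had 2429 CPM in control and 2465 in mutant choroid cells against 247 and 259 in fibroblast-like cells, a ratio of 9.81 and 9.53. Atp5g3 was 3.22 and 3.95 times, and Atp5g2 1.49 and 1.53 times, the highest other class. In microglia-like cells Atp5g2 was the most abundant of the 3, at 243 and 268 CPM against 129 and 126 for Atp5g1. The 250 bases before their transcription starts are given because the class contrast of these genes differs so much. Sequences here are from RefSeq, build GRCm38.p6, 5′ to 3′ on the gene strand, with capitals marking CG dinucleotides.
Atp5g1, chr11:96075632-96075881, minus strand: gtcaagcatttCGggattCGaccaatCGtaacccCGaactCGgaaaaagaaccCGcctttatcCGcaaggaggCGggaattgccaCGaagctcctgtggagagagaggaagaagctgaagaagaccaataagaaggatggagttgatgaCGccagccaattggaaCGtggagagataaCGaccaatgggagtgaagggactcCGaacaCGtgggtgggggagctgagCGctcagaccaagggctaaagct
Atp5g2, chr15:102671048-102671297, minus strand: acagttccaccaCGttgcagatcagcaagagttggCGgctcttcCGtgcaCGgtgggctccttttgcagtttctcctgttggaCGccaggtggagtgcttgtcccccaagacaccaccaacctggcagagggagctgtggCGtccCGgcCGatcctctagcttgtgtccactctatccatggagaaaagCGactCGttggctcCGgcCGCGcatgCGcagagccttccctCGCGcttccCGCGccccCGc
Atp5g3, chr2:73911327-73911576, minus strand: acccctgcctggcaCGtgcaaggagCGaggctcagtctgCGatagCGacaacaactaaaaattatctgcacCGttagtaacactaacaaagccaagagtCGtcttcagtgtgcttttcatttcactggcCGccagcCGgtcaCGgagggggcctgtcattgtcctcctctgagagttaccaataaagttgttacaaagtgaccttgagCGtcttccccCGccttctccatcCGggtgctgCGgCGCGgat

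These windows held 15, 19 and 15 CG dinucleotides. With the 50 bases after the start added, the windows of Atp5g1, Atp5g2 and Atp5g3 held 16, 20 and 21, beside a median of 7 (quartiles 3 and 20) over all 32841 RefSeq promoter windows of 300 bases and 19 (15 and 25) over the 74 windows matched to 69 nuclear member symbols. Motifs were searched on both strands. The NRF1 motif GCGCATGCG was in 8 of the 74 member windows (10.8%) and 1.75% of all windows, with Atp5g2 among the 8. The YY1 motif AAGATGGCG was in 9.46% and 1.40%. The GABPA motif CCGGAAGTG was in 2.70% and 2.03%, and TATAAA was in 12.2% and 13.6%. No 2 of these motifs overlapped in a member window. A match describes letters only, and binding was not measured.

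Atp5o appears under 2 gene models. The established gene, ENSMUSG00000022956, had 917 and 914 CPM in choroid cells against 97.1 and 94.5 in microglia-like cells, like the rest of complex V. The other, ENSMUSG00000116933 on chromosome 16 from 91684398 to 91926982, spans other genes, so its counts cannot be assigned to the ATP synthase with certainty. It had 229 and 355 CPM in BAM-like cells, 3.64 and 4.59 in choroid cells and 7.50 and 6.21 in microglia-like cells.

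Related gene lists showed the contrast to different degrees. The 10 matched electron carriers and subunits outside the symbol rule, among them Cycs (cytochrome c) and Cyc1, were together 2.76 times the next class in control and 3.01 times in mutant choroid cells. Cycs had 550 and 542 CPM there and 59.9 and 57.0 in microglia-like cells. The 46 assembly factors were 1.40 and 1.42 times, and the 15 citric acid cycle genes 1.41 and 1.59 times, the next class. With Ttr counted, the 19 genes for expression of mitochondrial DNA were lower in choroid than in endothelial-like cells, at 0.792 and 0.785 times. The 98 ribosomal protein genes were then at 0.787 and 0.795 times the highest other class. The 8 biogenesis regulators were lowest in the choroid class among the 6, with 167 and 178 CPM against 652 and 571 in astrocyte-like cells. Ttr is in the total of all these levels, at 323824 and 313805 CPM in choroid and 4146 and 4081 in endothelial-like cells. The list ratios and class orders were not recomputed without Ttr and are given with it counted. Leaving Ttr out would raise the choroid levels most. The ratios under 1 and the lowest rank of the biogenesis regulators therefore need not hold without it. Ppargc1a, the coactivator PGC-1 alpha, was the largest part of the astrocyte sum, with 329 and 264 CPM in astrocyte-like and 38.9 and 49.6 in choroid cells.

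Choroid plexus epithelium-like cells also expressed 3 minor isoforms of complex IV, of which Cox8b was scarce in the other classes of at least 50 cells. Cox8b, the heart and skeletal muscle form of subunit VIII, is on chromosome 7 from 140898945 to 140900446. It had 379 and 353 CPM in the choroid class, 8.69% (interval 8.42 to 8.97) and 8.70% (8.47 to 8.93) of the summed Cox8a and Cox8b UMIs. No other class of at least 50 cells exceeded 11.9 CPM. In microglia-like cells the share was 0.572% and 0.521%. There Cox8b stood at 0.518% and 0.537% of its choroid level, beside 0.625% and 0.708% for the choroid transcript Ttr in the same cells. In endothelial-like cells Cox8b stood at 3.13% and 1.07% of its choroid level beside 1.28% and 1.30% for Ttr, and in fibroblast-like cells at 0.536% and 1.02% beside 0.563% and 0.552%, on few UMIs. The part of free choroid RNA in these counts was not tested. If all Ttr there were free choroid RNA, the same RNA would supply 449 and 502 of the 10372 and 10640 CPM of the nuclear set in microglia-like cells.

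Cox6b2, known from testis, made 20.1% (interval 19.5 to 20.8) and 21.1% (20.5 to 21.6) of the Cox6b1 and Cox6b2 UMIs in the choroid class. Its share was 14.2% and 15.8% in fibroblast-like cells and 1.92% and 2.17% in microglia-like cells. Cox7a1, the heart and muscle form of subunit VIIa, made 6.97% and 7.42% of the Cox7a1 and Cox7a2 UMIs in the choroid class and 0.618% and 0.607% in microglia-like cells. It was not particular to the choroid class, with 9.83% (5.83 to 15.3) and 4.76% (2.56 to 8.005) in ependymal-like cells, 3.34% and 3.60% in astrocyte-like cells, 5% and 1.68% in fibroblast-like cells, and 12.5% (2.66 to 32.4) from 3 UMIs in control mural-like cells. In the choroid class the shares of the 2 libraries were close for all 3 isoforms. Upstream windows of the 3 pairs are shown because the widespread and the minor form of each pair differed in CG content.
Cox8a, chr19:7217617-7217866, minus strand: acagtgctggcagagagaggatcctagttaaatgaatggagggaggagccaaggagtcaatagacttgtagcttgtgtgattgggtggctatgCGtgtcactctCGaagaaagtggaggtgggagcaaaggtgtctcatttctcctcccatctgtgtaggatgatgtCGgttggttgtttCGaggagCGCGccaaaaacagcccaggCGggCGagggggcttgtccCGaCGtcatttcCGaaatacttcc
Cox8b, chr7:140900447-140900696, minus strand: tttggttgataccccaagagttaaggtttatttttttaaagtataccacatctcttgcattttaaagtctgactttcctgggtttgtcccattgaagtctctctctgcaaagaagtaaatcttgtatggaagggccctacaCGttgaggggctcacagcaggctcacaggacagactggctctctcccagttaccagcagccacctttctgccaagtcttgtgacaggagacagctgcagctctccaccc
Cox6b1, chr7:30626115-30626364, minus strand: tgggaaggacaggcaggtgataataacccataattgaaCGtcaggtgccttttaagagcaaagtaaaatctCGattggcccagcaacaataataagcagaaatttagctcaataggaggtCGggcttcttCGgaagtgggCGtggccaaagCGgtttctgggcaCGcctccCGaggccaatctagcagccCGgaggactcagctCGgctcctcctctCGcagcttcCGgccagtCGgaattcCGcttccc
Cox6b2, chr7:4753095-4753344, minus strand: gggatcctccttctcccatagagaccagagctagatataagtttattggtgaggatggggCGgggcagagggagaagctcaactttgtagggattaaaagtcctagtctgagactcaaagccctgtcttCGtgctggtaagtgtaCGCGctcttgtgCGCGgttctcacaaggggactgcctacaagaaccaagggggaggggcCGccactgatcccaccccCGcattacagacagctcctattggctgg
Cox7a2, chr9:79759854-79760103, minus strand: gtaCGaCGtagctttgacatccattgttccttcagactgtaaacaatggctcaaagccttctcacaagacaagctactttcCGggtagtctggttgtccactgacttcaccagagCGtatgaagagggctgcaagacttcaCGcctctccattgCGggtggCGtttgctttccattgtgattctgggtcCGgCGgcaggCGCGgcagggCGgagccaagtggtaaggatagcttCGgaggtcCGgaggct
Cox7a1, chr7:30183921-30184170, plus strand: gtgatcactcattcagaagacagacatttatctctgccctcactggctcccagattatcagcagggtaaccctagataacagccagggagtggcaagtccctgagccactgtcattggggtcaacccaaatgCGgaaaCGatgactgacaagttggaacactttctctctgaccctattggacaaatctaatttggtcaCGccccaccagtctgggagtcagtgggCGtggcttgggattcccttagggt

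The widespread forms Cox8a, Cox6b1 and Cox7a2 held 11, 14 and 14 CG dinucleotides in these windows, and the minor forms Cox8b, Cox6b2 and Cox7a1 held 1, 8 and 4. With the 50 bases after the start, the Cox8b window contained TATAAA. None of these 6 windows contained the NRF1, YY1 or GABPA motif.

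Cox8b was unevenly spread over the choroid cells. It was found in 340 of 554 control cells (61.4%) and 563 of 965 mutant cells (58.3%), although at these depths a cell with the class mean would be expected to show at least 1 UMI in 96.9% and 96.6% of cases. The highest-ranked 10% of cells held 53.0% and 51.1% of all Cox8b UMIs. For Cox8a the same fraction of cells held 22.0% and 22.2%, and for Atp5g1 22.8% and 23.6%, so the partner isoform, which is also far more abundant, was more even. For the less abundant Cox6b2 it was 30.5% and 31.6%, and for Cox7a1 35.65% and 38.7%. The part of abundance in these shares was not tested. Thinned to 1000 UMIs per cell, Cox8b was found in 24.2% of 554 control and 19.3% of 964 mutant choroid cells, with 1 mutant cell too shallow, and in 0.202% and 0.133% of microglia-like cells. Cox6b2 was found in 90.4% and 86.4% of cells, against 95.6% and 95.5% expected from its mean.

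Choroid cells with a Cox8b UMI were deeper than those without, with median counts of 18395 and 16100 UMIs in the control and 16010 and 12762 in the mutant. Their summed nuclear level, which includes Cox8b itself, was 74356 against 67488 CPM in the control and 73031 against 67437 in the mutant. Cox7a1 stood at 111 against 84.9 in the control and 111 against 93.7 in the mutant, whereas Cox6b2 stood at 297 against 324 and 321 against 292, in opposite directions. Ttr, part of the total, stood at 316207 against 337708 CPM in the control and 307203 against 324911 in the mutant. The part of depth, of Ttr and of Cox8b itself in these values was not tested.

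**Figure D3:**
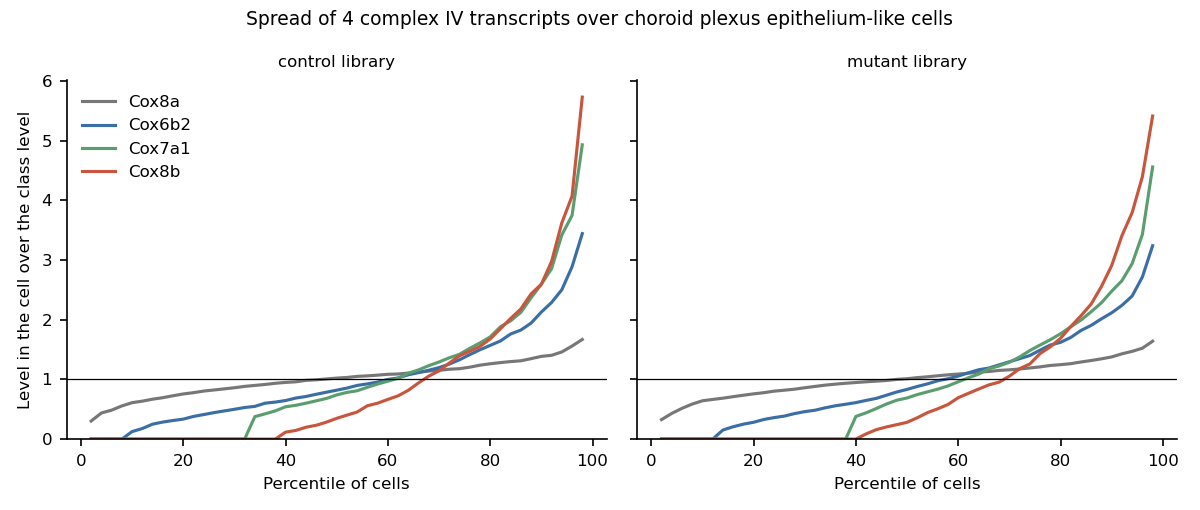
Levels of 4 complex IV transcripts in single choroid plexus epithelium-like cells, each divided by its class level, are plotted against the percentile of cells for the control (left) and mutant (right) library. The Cox8b curve stays at 0 for the cells without a UMI, leaving the 61.4% of control and 58.3% of mutant cells that have one. It then climbs to 5.73 and 5.41 times the class level at percentile 98. Cox8a runs from 0.302 and 0.326 times at percentile 2 to 1.67 and 1.64 times at percentile 98.

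Mural-like cells, which surround brain vessels, carried a different pair of minor isoforms, on few counts. Ndufa4l2, a hypoxia-responsive relative of Ndufa4, had 83 UMIs beside 1 of Ndufa4 in 10 control cells, 98.8% of the pair (interval 93.5 to 100). In 10 mutant cells it had 10 beside 8, which is 55.6% (30.8 to 78.5). Without the cap the shares were 96.6% and 75% in 18 and 28 cells. Cox4i2, an isoform of subunit IV known from lung and linked to oxygen sensing, made 38.0% (27.3 to 49.6) of its pair with Cox4i1 in control cells and 55.6% (21.2 to 86.3) in mutant cells, from 30 and 5 UMIs. In microglia-like cells Cox4i2 was 0.0202% and 0.0613% of the pair, and Ndufa4l2 0.0290% and 0.106%.

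The 2 mural groups differ in more than genotype. Median depth was 3291 UMIs in the control and 1455 in the mutant cells. The summed microglial markers stood at 852 and 2420 CPM and choroid markers at 3281 and 8837. Ttr RNA would account for 18.4% of the nuclear set in the mutant mural-like cells if it came from free choroid RNA. The part of these values in the difference between the mural groups was not tested. In fibroblast-like cells Ndufa4l2 had 28.4 CPM in the control and 7.23 in the mutant, beside summed mural markers of 3423 and 444.

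Other minor isoforms marked other classes. Cox6a2, the heart and muscle form of subunit VIa, made 4.66% (interval 4.03 to 5.34) and 5.10% (4.48 to 5.77) of its pair in microglia-like cells, from 192 and 233 UMIs. In the choroid class it had 0 UMIs beside 7214 and 11299 of Cox6a1, which allows a share of up to 0.0416% and 0.0266%. Cox7b2 was found mainly in astrocyte-like cells, where it made 4% (3.15 to 5.003) and 6.57% (4.51 to 9.19) of its pair with Cox7b. Of the mutant UMIs, 22.6% came from a single cell. Cox7a2l, whose product helps complexes III and IV associate, made 57.4% and 61.1% of the Cox7a2 and Cox7a2l UMIs in microglia-like and 50.4% and 55.1% in BAM-like cells, but 15.9% and 17.3% in the choroid class. Cox7a2 had 163 and 165 CPM in microglia-like and 1359 and 1307 in choroid cells. Cox7a2l itself had 219 and 260 against 257 and 273.

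**Figure D4:**
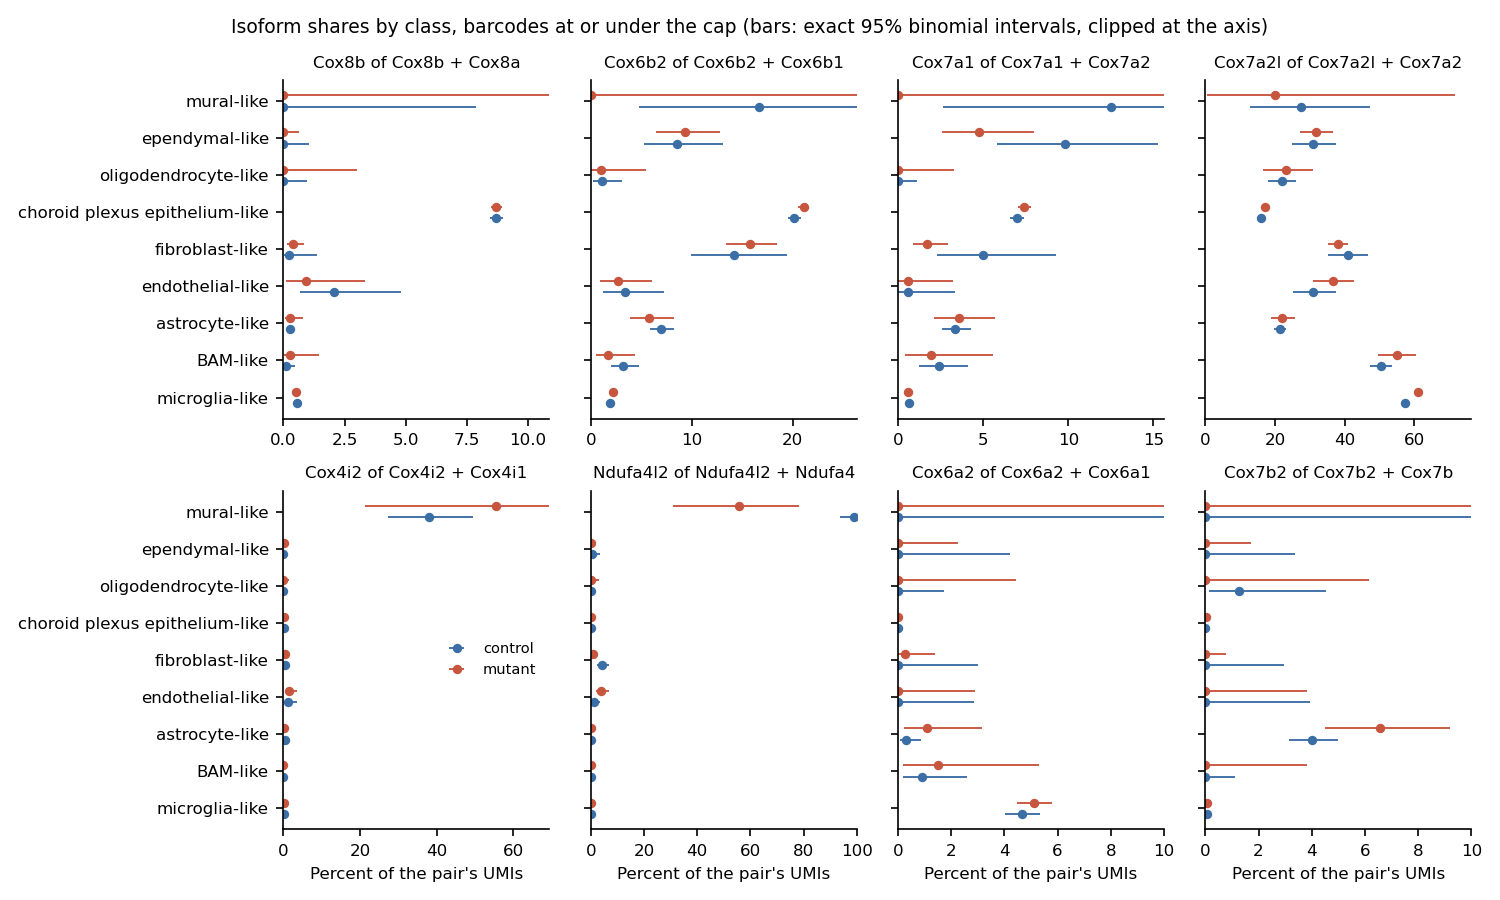
Each panel plots the share of a minor isoform in the UMIs of its pair, in percent, for 9 classes; blue and red are the control and mutant libraries and bars are exact 95% binomial intervals, clipped at the axis. Cox8b peaks in the choroid class at 8.69% and 8.70%, Cox4i2 and Ndufa4l2 in mural-like cells, Cox6a2 in microglia-like and Cox7b2 in astrocyte-like cells.

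The mt- messenger RNAs of the 6 classes also differed from each other. The 2 ribosomal RNAs made 37.2% and 35.3% of mt- UMIs in endothelial-like cells, 30.8% and 27.3% in astrocyte-like cells and 22.2% and 19.4% in choroid cells. Complex I transcripts made 28.8% and 30.1% of mt- messenger UMIs in choroid cells and 22.8% and 23.5% in BAM-like cells. mt-Nd5, a proton-pumping subunit of complex I, had 1273 and 1631 CPM over all UMIs in choroid cells, 1.92 times the next class in both libraries. mt-Cytb, the only complex III subunit made in mitochondria, was highest in fibroblast-like cells at 7784 and 8563 CPM, against 5290 and 5744 in choroid cells. The rRNA mt-Rnr1 was highest in astrocyte-like cells, at 9416 and 7333.

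Between the genotypes the nuclear members differed little. A member met the size rule when mutant and control levels differed by 1.5 times or more in either direction, the counting interval of the ratio left out 1 and the gene had at least 50 UMIs in the class. In microglia-like cells 0 of 82 measured nuclear members met it, where 8.28% of all genes did. In choroid plexus epithelium-like cells 0 of 81 did (all genes 3.36%), in astrocyte-like cells 0 of 81 (6.43%) and in fibroblast-like cells 0 of 79 (14.3%). In BAM-like cells, the class marked by Mrc1, 1 of 78 did (7.34%), the uncertain Atp5o model ENSMUSG00000116933, at 229 CPM in the control and 355 in the mutant, a ratio of 1.55 (1.32 to 1.82). That single call was lost without the cap. Markers of monocytes or dendritic cells summed to 583 CPM in control and 1107 in mutant BAM-like cells and astrocyte markers to 197 and 73.6, and their part in the BAM values here was not tested. In endothelial-like cells 3 of 74 did (8.38%), all lower in the mutant, namely Ndufa12 at 161 and 106 CPM, Ndufs7 at 154 and 92.5 and Atp5h at 543 and 359. These rest on 49 to 229 UMIs per library.

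The summed nuclear set had a mutant to control ratio of 1.03 in microglia-like cells (interval 1.02 to 1.03), 1.04 (1.02 to 1.06) in fibroblast-like and 0.986 (0.983 to 0.989) in choroid cells. With equal weight per cell the microglial ratio turned to 0.982, and without the cap the fibroblast ratio was 1.004 (0.987 to 1.02) and the choroid ratio 1.01. Under the cap the nuclear ratio was 0.935 (0.913 to 0.958) in BAM-like, 0.893 (0.867 to 0.921) in endothelial-like and 0.884 (0.872 to 0.896) in astrocyte-like cells. In astrocyte-like cells 74 of 81 measured members had a ratio under 1, with a median log2 ratio of -0.17 beside 0.00 over all measured nuclear genes. The ribosomal protein genes there had a median of -0.17 as well. In endothelial-like cells the members' median was -0.15 beside 0.01, in BAM-like cells -0.08 beside 0.01, and in microglia-like cells 0.01 beside -0.02. In fibroblast-like cells it was 0.04 beside 0.06 and in choroid cells -0.01 beside 0.04. Erythroid markers summed to 3425 CPM in control and 315 in mutant astrocyte-like cells, and their part was not tested. All 6 summed shifts were smaller than the size rule.

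Of the lists outside the members, the electron carriers had 0 calls in each of the 6 classes, where 3.36% to 14.3% of all genes were called. The assembly factors had 1 higher and 2 lower over all classes. These were 1 lower of 27 measured in fibroblast-like cells (all genes in either direction 14.3%), and 1 higher and 1 lower of 42 in astrocyte-like cells (6.43%). Ppargc1a was lower in mutant microglia-like cells, at a very low level of 2.66 and 0.979 CPM, 1 of 8 biogenesis regulators measured there (all genes 8.28%). Astrocyte-like cells had 329 and 264 CPM of it. Astrocyte markers summed to 434 CPM in control and 311 in mutant microglia-like cells, and their part was not tested. Of the genes for expression of mitochondrial DNA, Polg was lower in mutant fibroblast-like cells at 40.6 and 18.1 CPM, 1 of 8 measured (all genes 14.3%). Tfb1m was lower in mutant astrocyte-like cells at a low level, 11.0 and 4.61 CPM, 1 of 17 measured (6.43%). In the citric acid cycle list, Suclg2, a succinyl-CoA ligase subunit, was higher in mutant fibroblast-like cells at 32.5 and 63.3 CPM. Fh1, fumarate hydratase, was lower in mutant BAM-like cells at 72.8 and 39.7 CPM and in mutant fibroblast-like cells at 64.9 and 40.4. In this list that made 1 lower of 14 measured in BAM-like cells (all genes 7.34%). In fibroblast-like cells it made 1 higher and 1 lower of 15 (14.3%).

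The mt- set had a ratio of 0.895 (interval 0.893 to 0.898) in microglia-like, 0.885 (0.874 to 0.896) in BAM-like and 0.868 (0.862 to 0.874) in astrocyte-like cells. It was 1.05 (1.03 to 1.07) in endothelial-like, 0.985 (0.973 to 0.997) in fibroblast-like and 1.03 (1.02 to 1.03) in choroid cells. With equal weight per cell the fibroblast ratio turned to 1.03, whereas without the cap it was 0.9005 (0.893 to 0.908). Single mt- RNAs shifted against each other in the same direction in several classes. As a share of mt- RNA, the 2 ribosomal RNAs were lower in the mutant in 6 of 6 classes, at ratios of 0.855 to 0.949. Because these are shares of a whole, lower ribosomal shares go with higher messenger shares. The messengers together had ratios of 1.023 to 1.052, so single rises near these are not separate shifts. mt-Nd4l, mt-Nd4, mt-Nd5, mt-Co1 and mt-Cytb had ratios above 1 in 6 of 6, and each interval left out 1 except that of mt-Cytb in endothelial-like cells, at 1.05 (0.978 to 1.12). mt-Nd3 and mt-Co3 had ratios below 1 in 6 of 6, but the interval left out 1 in 4 classes for mt-Nd3 and in 3 for mt-Co3, which stood at 0.9991 (0.991 to 1.01) in choroid cells. The ratio lay above 1 in 5 of 6 for mt-Nd1 and mt-Nd6 and below 1 in 5 of 6 for mt-Nd2 and mt-Atp6, in part with intervals that include 1, while mt-Co2 and mt-Atp8 were divided. The classes come from the same 2 libraries and are not replicates, and the part of the library itself in these shifts was not tested.

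As CPM over all UMIs, mt-Nd5 had 324 in control and 393 in mutant microglia-like cells, 283 and 471 in endothelial-like, 532 and 851 in fibroblast-like and 1273 and 1631 in choroid cells. It met the size rule in endothelial-like cells, at 1.67 (1.34 to 2.08), and in fibroblast-like cells, at 1.60 (1.41 to 1.82). mt-Nd4l, whose reading frame overlaps that of mt-Nd4 on a shared transcript, met it in the same classes at 1.60 (1.18 to 2.19) and 1.83 (1.51 to 2.23). mt-Nd6, the only messenger encoded on the light strand, met it in fibroblast-like cells at 2.51 (1.59 to 4.15) and in choroid cells at 1.72 (1.58 to 1.87), but stood at 0.684 (0.442 to 1.03) in BAM-like cells. No other mt- messenger met the rule in any class. Of the 13 messengers, 2 met it in endothelial-like (all genes in either direction 8.38%), 3 in fibroblast-like (14.3%) and 1 in choroid cells (3.36%). In microglia-like (8.28%), BAM-like (7.34%) and astrocyte-like cells (6.43%) 0 of 13 did. Without the cap 3 members in place of 5 were past the rule in endothelial-like cells, and 1 in place of 3 in fibroblast-like cells. The share of all genes was not computed without the cap. Erythroid markers summed to 950 CPM in control and 287 in mutant endothelial-like cells, and mural markers to 3423 and 444 in fibroblast-like cells, and their part in these values was not tested. Among the rare transfer RNAs, the size rule called 9 of 18 measured lower in mutant microglia-like cells (all genes in either direction 8.28%), 4 of 6 in astrocyte-like (6.43%) and 6 of 16 in choroid cells (3.36%). Ratios under 1, called or not, numbered 16 of 18, 6 of 6 and 14 of 16. mt-Ts2 had 219 UMIs in control and 114 in mutant microglia-like cells, a ratio of 0.506 (0.400 to 0.637).

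**Figure D5:**
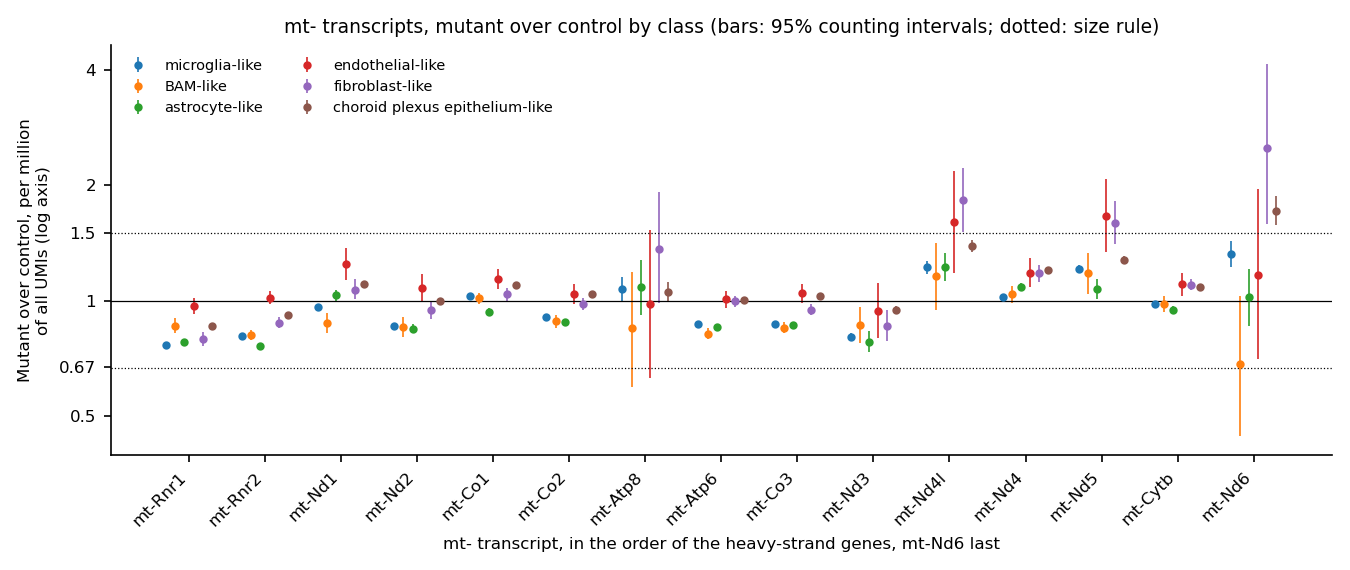
The mutant to control ratio of CPM over all UMIs is plotted on a log axis for the 2 mt- ribosomal and 13 messenger RNAs, coloured by class, with 95% counting intervals and dotted lines at the size rule. mt-Nd4l and mt-Nd5 lie above 1 in all 6 classes, whereas mt-Rnr1 lies below 1 in all 6.

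The 10% cap removed classes unequally. It set aside 61.4% (interval 58.9 to 63.7) of control and 38.3% (33.4 to 43.4) of mutant astrocyte-like cells, 48.1% and 44.8% of choroid cells, 29.6% and 32.1% of fibroblast-like cells, and 21.3% and 24.8% of endothelial-like cells. It set aside 17.7% and 8.70% of BAM-like cells and 8.76% and 6.30% of microglia-like cells. Cells above the cap were not alike in depth. In microglia-like cells their median was 2119 and 2078 UMIs against 8265 and 8088 under the cap, and in astrocyte-like cells 7082 and 5759 against 8412 and 7028. Choroid cells above the cap had 12680 and 10419 against 17253 and 14509.

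The level of the nuclear set above the cap was 0.912 and 0.967 times that under it in choroid cells, 1.07 and 0.985 times in astrocyte-like and 1.18 and 1.10 times in fibroblast-like cells. It was lower in microglia-like cells, at 0.825 and 0.751 times, and in endothelial-like cells, at 0.651 and 0.719 times. Without the cap the nuclear order of the 6 classes was unchanged in both libraries, with choroid at 69411 and 70116 CPM. The mt- share without the cap was 11.96% and 8.89% in astrocyte-like, 9.78% and 9.32% in choroid and 9.25% and 8.33% in fibroblast-like cells. The mt- genotype ratio in astrocyte-like cells moved from 0.868 to 0.743 (interval 0.740 to 0.746). In choroid cells it crossed 1, from 1.03 to 0.954, and the nuclear ratio crossed from 0.986 to 1.01.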

How the data were processed

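The authors' matrices were written by Cell Ranger 7.1.0, per the file headers, and give unnormalized UMI counts for every gene in every barcode. The builds GRCm38.p6 and mm10 come from the submitters' processing notes, while for aligner settings, intron counting and free RNA correction the entry is: not given in the sources used here. Gene locations came from GENCODE M21, which held 25637 of the 26033 identifiers. Scrublet, run through scanpy 1.11.5 on each library, marked 2.15% of control and 2.47% of mutant barcodes as doublets, which were removed, leaving 5614 and 6130 barcodes at or under the cap, of which 497 and 637 were in no class. No deposited cell annotation was used.

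UMIs were summed per class and library. Nuclear members are given as CPM over nuclear-gene UMIs, so that the mt- share does not move them, and mt- members as CPM or percent over all UMIs. Because 3′ libraries count 1 end of each molecule, values were not divided by gene length. Levels carry exact Poisson, shares exact Clopper-Pearson and ratios exact conditional 95% intervals. The interval and size rule were run on simulated Poisson counts. These carry no variation between cells or libraries, so the run covers counting error alone. The size rule was applied where both libraries had at least 50 cells. Named genes were the 13 mt- messengers, the isoform pairs, members past the size rule, and per complex the most and least abundant and the most variable members between classes. Others, such as Ndufs1, Ndufb4, Sdha, Atp5g2 and Atp5g3, were named after their values were seen. The members and lists were chosen with earlier results of these data known. Some genes of the lists were not analysed here.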

Additional observations from a re-analysis of the deposited data

Results flagged for a closer look

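Summed over the nuclear members, the mutant to control ratio lay above 1 in fibroblast-like cells, at 1.041 (interval 1.02 to 1.06), and below 1 in astrocyte-like cells, at 0.884 (0.872 to 0.896). Without the cap the fibroblast ratio was 1.004 (0.987 to 1.02), an interval that includes 1. Summed over the mt- members it lay above 1 in endothelial-like cells, at 1.052 (1.03 to 1.07), and below 1 in astrocyte-like cells, at 0.8679 (0.862 to 0.874). These pairs of classes drew attention because their single libraries moved in opposite directions. With 1 library per genotype the difference between classes was not tested.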

How the results depend on the processing

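Dropping the 10% cap changed the number of members past the size rule from 1 to 0 in BAM-like, 5 to 3 in endothelial-like, 3 to 1 in fibroblast-like and 4 to 9 in astrocyte-like cells. It moved the choroid genotype ratio of the nuclear set from 0.986 to 1.01 and of the mt- set from 1.03 to 0.954, and the choroid to fibroblast ratio to 2.85 in the control and 2.87 in the mutant. The BAM count was 2 with at least 1000 genes per barcode, 4 with a stricter gate and 2 with equal weight per cell. With equal weight the nuclear ratio was 0.982 in microglia-like cells (1.03 with summed UMIs) and the mt- ratio 1.03 in fibroblast-like cells (0.985 with summed UMIs). Without the cap that fibroblast mt- ratio was 0.9005. Without a UMI minimum the fibroblast count was 5. With a milder size rule the counts were 10 in BAM-like, 13 in endothelial-like, 13 in fibroblast-like, 12 in astrocyte-like and 11 in choroid cells. The share of all genes past the rule was not computed under any of these changed settings. Whether the changed counts exceed the general rate therefore cannot be told. Leaving Ttr out of the total, chosen after seeing the data, gave choroid to fibroblast ratios of 4.63 and 4.32. The cause of these changes was not tested. Of the alternatives run, 46 counts, 39 nuclear and 39 mt- set ratios and 10 isoform shares stayed on their side of the criteria. A stricter gate left under 50 fibroblast-like cells in a library and gave no value there. No paired analysis was possible because each genotype has 1 library, and no replicate could be left out. Mural-like values rest on 42648 control and 19025 mutant UMIs.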
